A study of Rattus norvegicus with 12 samples.

Results

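Messenger RNA of PC12 cells given doxycycline and compound 3 was compared with that of the same line left without the inducer. The comparison used 6 of the 12 arrays of the series, 3 labelled compound 3 at 10 µM and 3 labelled non-induced with DMSO, and was chosen by those array titles alone. It was read over 34422 of 68842 features, a feature being a transcript cluster of the Rat Transcriptome Array 1.0. Control features and the dimmer part of the rest, with a 12-array mean below the median such mean (4.63 log2 units), were left out. PC12 is a line grown from a rat tumour of the adrenal medulla. In every group the cells carried an inducible, GFP-tagged exon-1 fragment of huntingtin with 74 glutamines. The control group had DMSO and no doxycycline. The compound 3 group had doxycycline at 1 µg/ml and compound 3, a guanabenz analogue per the series title, for 48 h. The other groups, also 3 arrays each, were induced cells with DMSO and induced cells with compound 6, a further analogue, at 10 µM. Both the inducer with its fragment and the compound differ between the groups compared, so their parts in a difference cannot be told apart from these 6 arrays. The labels do not say whether the cells are 1 clone, which promoter drives the fragment, or whether replicates are separate cultures. If they are not, the p-values describe technical spread alone.

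Chromaffin cells of the adrenal medulla make catecholamines from tyrosine, load them into dense-core granules together with granins and peptides, and release them when acetylcholine opens nicotinic receptors. Expanded glutamine tracts make huntingtin fragments aggregate, and cells clear such proteins through the proteasome and through autophagy, which ends in the lysosome. Guanabenz is an alpha-2 adrenoceptor agonist that has also been reported to act on the stress-induced phosphatase subunit encoded by Ppp1r15a.

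Both groups read as PC12 cells by their chromaffin markers, although these markers were among the genes that differed. The summed level of 9 chromaffin markers was 14.70 to 14.77 log2 units on the non-induced arrays and 13.50 to 14.01 on the compound 3 arrays. In bulk RNA, fewer cells of a type and less of an RNA per cell cannot be told apart. The adrenocortical sum was 7.99 to 8.02 in non-induced and 8.04 to 8.06 in compound 3 cells, the macrophage sum 8.82 to 8.86 and 8.78 to 8.95, and the endothelial sum 7.86 to 7.95 and 7.82 to 7.90. The glial sum was 8.61 to 8.71 and 8.60 to 8.61. Of the measured markers 1 of 5 adrenocortical ones rose and 1 of 7 glial ones fell. The mesenchymal sum went from between 11.78 and 11.85 to between 11.11 and 11.20, and 1 of its 7 measured markers fell, Thy1, which PC12 cells express themselves. Array medians ran from 4.61 to 4.70 over all 12 arrays, and the mean of the GC-background probes was 3.98 to 4.00 on non-induced and 3.99 to 4.03 on compound 3 arrays. On the induced DMSO arrays that mean was 3.95, 4.07 and 4.20. Compound 3 array 3 was the lowest of its group for 11 of the 13 chromaffin genes that fell, 15 of 16 exocytosis genes and 32 of 35 mitosis genes. Its part in those results was not tested beyond the values without it that are given below.

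In compound 3 cells 2870 features were higher (8.34% of those tested) and 2346 lower (6.82%) than in non-induced cells, 5216 in all (15.2%). The test was limma's moderated test with Benjamini-Hochberg adjustment over the 34422 features, and rose and fell below mean an adjusted p under 0.05. Members of a list that are named without such a verb, and further examples beyond the naming rule given with the processing, were chosen after their values were seen. The called features cover 2142 named genes that were higher and 1198 that were lower. Most changes were small: 198 features rose and 687 fell by at least 1.5-fold, and the median difference over all features was 0.007 log2 units. The 3 arrays of each group did not overlap in 30.3% of all features and in 99.3% of those called. Of the features with 1 gene symbol 21.6% were called, and of those with none 9.39%. List members all have 1 symbol. The closer share to set beside a list is therefore 21.6% (2226 higher and 1235 lower of 16054). It is not matched for expression level. Calls were fewer in the lower bins of mean level, given at the end, so 21.6% can be too low for lists of brighter genes. Without non-induced array 3 the total was 3465, with 1685 higher and 1780 lower, and cyclic loess gave 2247 higher and 2589 lower, so which direction had more calls depended on such choices. Without compound 3 array 3, 1791 were higher and 1750 lower, and without non-induced array 2, 1871 and 1885. All differences below are compound 3 minus non-induced in log2 units, with ± for the standard error and 3 arrays a group. The fit pooled the spread of all 12 arrays. For scale, the same fit called 3120 features (9.06%) for induced DMSO against non-induced cells and 2644 (7.68%) for compound 6 against non-induced cells. These comparisons share the non-induced arrays, and the counts were not tested against each other.

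The 12 named genes that fell most included receptors, a peptide precursor and genes of catecholamine cells. P2ry12, a purinergic receptor for ADP, read 8.60, 8.65 and 8.51 on the non-induced arrays and 6.08, 6.12 and 5.40 on the compound 3 arrays. It was 6.59-fold lower (-2.72 ± 0.15, adjusted p = 5.79e-06). Itga1, the collagen-binding integrin alpha 1, went from 8.45, 8.68 and 8.63 to 6.92, 6.89 and 6.70, which is 3.36-fold lower (-1.75 ± 0.08, adjusted p = 2.27e-06). The groups stood far apart in both genes, and the compound 3 arrays lay close together for Itga1. Gpr139, an orphan receptor responsive to aromatic amino acids, read 10.50, 10.09 and 10.35 against 8.96, 8.89 and 7.72 (-1.79 ± 0.29, adjusted p = 0.00154). Compound 3 array 3 was more than 1 unit below its partners there, and without it the difference was -1.39. C2cd4b and its relative C2cd4a, small proteins with a C2 domain, fell by 1.90 ± 0.13 and 1.65 ± 0.14. Adm, the vasodilator peptide adrenomedullin, fell by 1.76 ± 0.16, and Agtr2, the type 2 angiotensin receptor, by 1.65 ± 0.17. Fzd5, a Wnt receptor, fell by 1.63 ± 0.12, from 11.02, 11.14 and 11.24, to 9.46, 9.73 and 9.33. Dgkh, a diacylglycerol kinase, fell by 1.60 ± 0.10. The largest of these 6 adjusted p-values was 0.000105, for Agtr2. That gene went from 5.60, 6.07 and 6.28 to 4.29, 4.51 and 4.19, below the 4.63 set for the mean over all arrays. Its means were 4.64 in induced DMSO and 4.60 in compound 6 cells, so the non-induced arrays (mean 5.98) carried it past that floor.

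Rises were smaller, with Gpnmb as the largest. Gpnmb, a transmembrane glycoprotein of lysosomes and melanosomes, read 6.28, 6.15 and 5.68 on the non-induced arrays and 8.11, 7.82 and 8.27 on the compound 3 arrays. It was 4.08-fold higher (2.03 ± 0.19, adjusted p = 5.63e-05), and the groups did not overlap. Sparc, a secreted matrix glycoprotein, rose from 7.68, 7.71 and 7.69 to 9.58, 9.29 and 9.67 (1.82 ± 0.12, adjusted p = 1e-05). Slit2, a guidance ligand for axons, rose from 5.89, 5.04 and 4.89 to 6.83, 6.38 and 6.98 (1.46 ± 0.24, adjusted p = 0.00153), with non-induced array 1 standing above its partners. Gstm2, which conjugates glutathione to toxic compounds, rose by 1.28 ± 0.09 (adjusted p = 1.14e-05). Msmo1 and Idi1, enzymes of cholesterol synthesis, rose by 1.14 ± 0.15 and 0.92 ± 0.08. Cth, which makes cysteine from cystathionine, rose by 0.94 ± 0.08, and Sord, the sorbitol dehydrogenase of the polyol pathway, by 0.93 ± 0.05. Cyp3a9, a cytochrome P450, rose by 1.00 ± 0.16 from 4.47, 4.29 and 4.06, which lie below the 4.63 set for the mean over all arrays. Its means were 4.63 in induced DMSO and 4.57 in compound 6 cells, so the compound 3 arrays (mean 5.27) carried it past that floor. Olfml3, a secreted protein of the olfactomedin family, rose by 0.99 ± 0.11 and Ddr2, a collagen receptor kinase, by 0.94 ± 0.13. Ddr2 read 4.22, 4.17 and 4.23 on the non-induced arrays, also below 4.63. A feature named Rps16, a ribosomal protein with many processed copies in the genome, rose by 0.93 ± 0.09, and signal from those copies cannot be told apart from the gene.

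**Figure D1:**
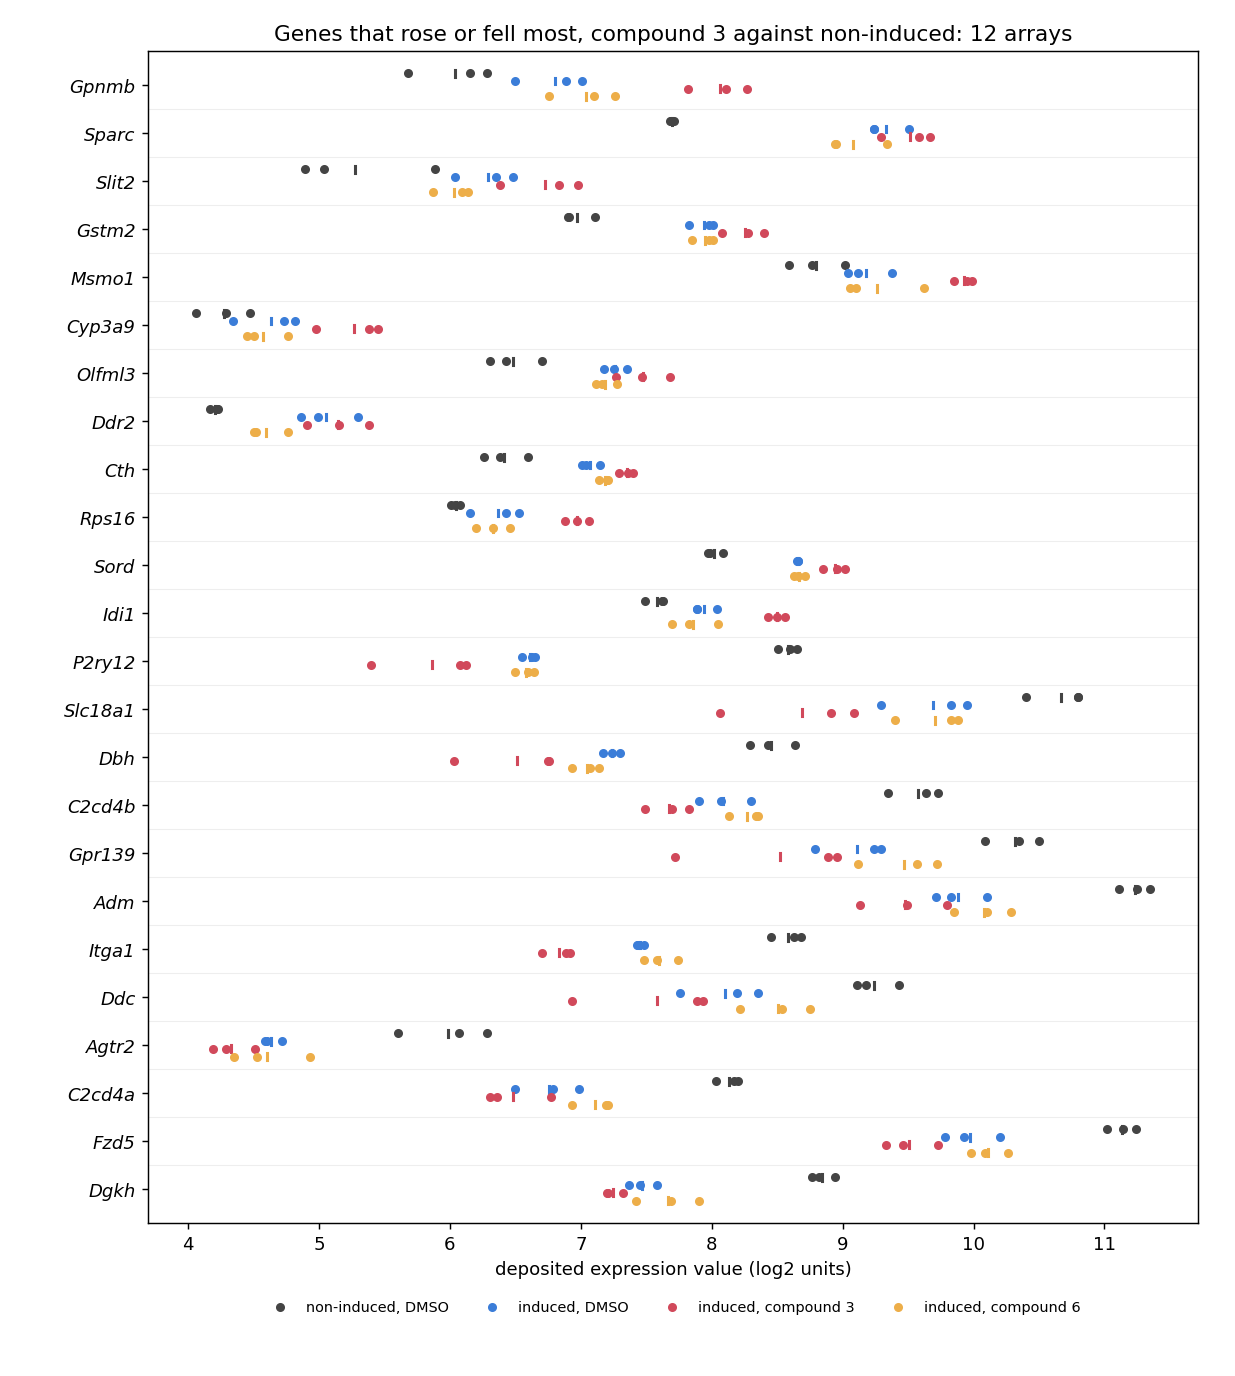
Deposited log2 expression values of the named genes with the 12 largest rises and the 12 largest falls in compound 3 against non-induced cells, 1 point per array and a bar at each group mean, for all 4 groups. The compound 3 points (red) lie apart from the non-induced points (black) for every gene shown, as the choice of genes required, and P2ry12 shows the widest gap at -2.72 log2 units.

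Genes that make and store catecholamines were lower in compound 3 cells. Of 19 measured members of the chromaffin and catecholamine list 13 fell and 2 rose, with a median difference of -1.14 log2 units against 0.007 over all features. Th, the tyrosine hydroxylase that starts the pathway, read 12.81, 12.58 and 12.70 on the non-induced arrays and 11.93, 11.89 and 10.84 on the compound 3 arrays (-1.14 ± 0.25, adjusted p = 0.00965). Ddc, the decarboxylase that makes dopamine, went from 9.43, 9.11 and 9.18 to 7.89, 7.93 and 6.93 (-1.66 ± 0.25, adjusted p = 0.000948). Both genes were lower on every compound 3 array, and both were lowest on array 3. Dbh, which turns dopamine into noradrenaline, fell from 8.64, 8.43 and 8.29 to 6.76, 6.75 and 6.03 (-1.94 ± 0.17, adjusted p = 3.49e-05). Slc18a1, the transporter that loads monoamines into granules, fell from 10.80, 10.40 and 10.80 to 8.91, 9.09 and 8.06 (-1.98 ± 0.26, adjusted p = 0.000392). The cofactor side of the pathway was split. Gch1, the first enzyme of tetrahydrobiopterin synthesis, fell from 11.00, 11.03 and 11.18 to 9.84, 9.95 and 9.74 (-1.23 ± 0.08, adjusted p = 7.6e-06), and Spr, the last, by 0.55 ± 0.12 (adjusted p = 0.00928). Pts, the middle enzyme, and Qdpr, which recycles the cofactor, did not pass, at -0.06 ± 0.06 and 0.00 ± 0.06. Pnmt, which makes adrenaline from noradrenaline, also did not pass (-0.08, adjusted p = 0.407).

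Transcription factors of the sympathoadrenal lineage did not all move together. Hand2 read 10.16, 10.03 and 10.16 on the non-induced arrays and 8.98, 8.93 and 8.59 on the compound 3 arrays (-1.28 ± 0.11, adjusted p = 2.82e-05). Phox2a, which switches on noradrenergic genes in development, fell by 1.35 ± 0.12 (adjusted p = 4.77e-05), and Insm1, a zinc-finger factor of endocrine progenitors, by 1.15 ± 0.09 (adjusted p = 2.34e-05). Gata2 fell by 0.35 ± 0.07 (adjusted p = 0.0036). Its relative Gata3 went the other way, from 7.24, 7.08 and 7.02 to 7.41, 7.33 and 7.46 (0.29 ± 0.07, adjusted p = 0.0199), which was lost when non-induced array 2 or 3, or compound 3 array 1 or 3, was left out. Isl1 did not pass (0.15, adjusted p = 0.105). Without compound 3 array 3, 12 members of the list fell and 0 rose (0 or 1 rose without any other of the 6 arrays), and the list's median was -0.787, which was also the difference of Th. In that fit Ddc stood at -1.33, Dbh at -1.70 and Slc18a1 at -1.67, and all 3 still passed.

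**Figure D2:**
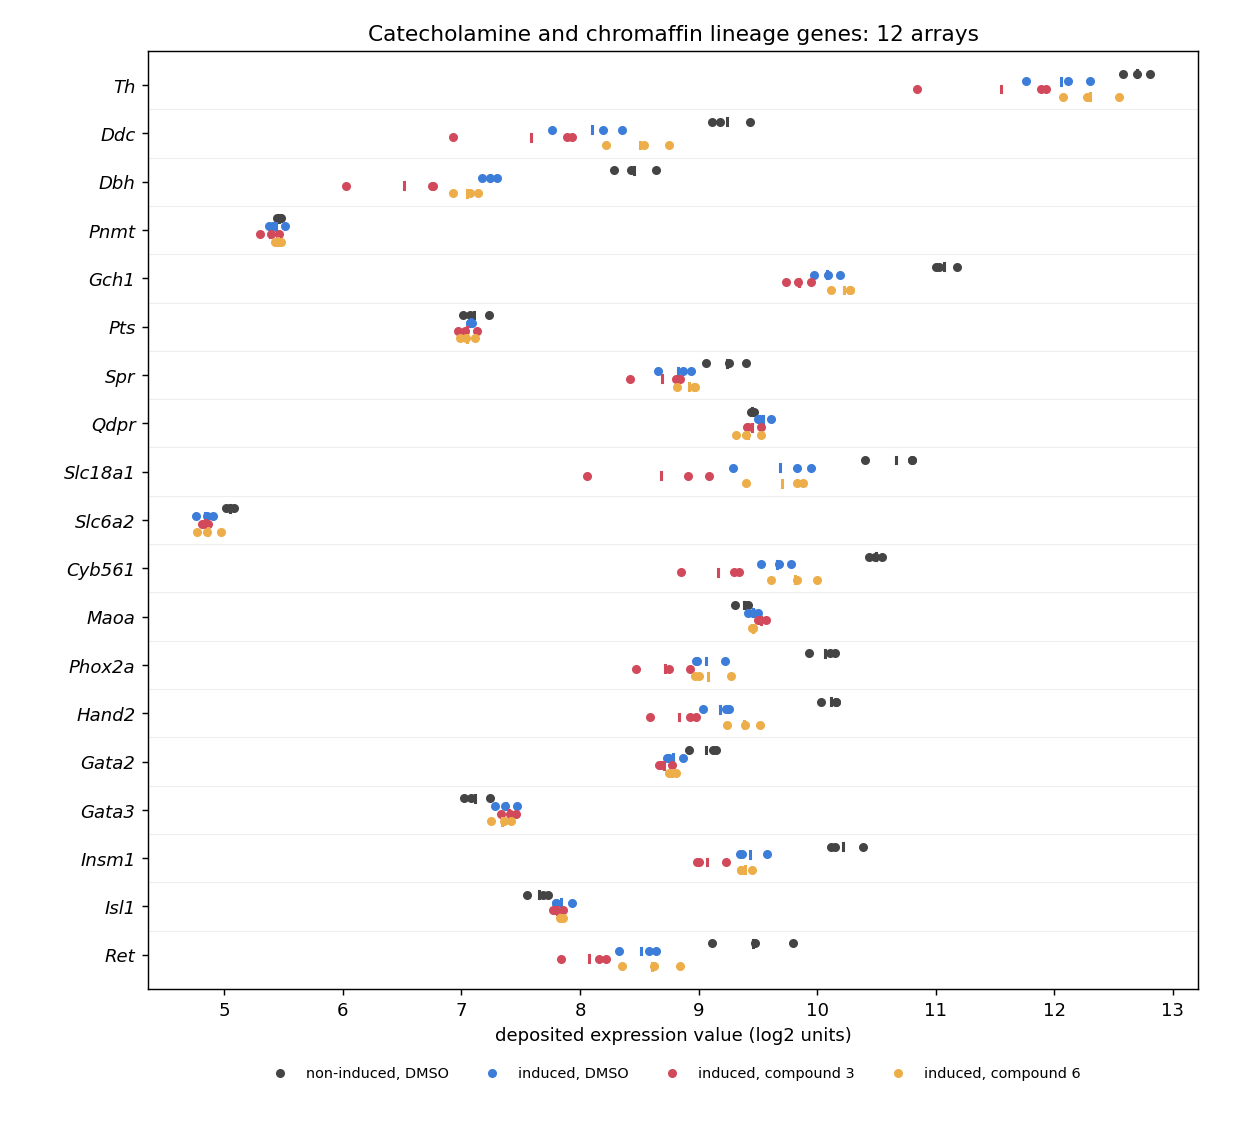
Deposited log2 expression values of the 19 measured genes of catecholamine synthesis, storage and chromaffin lineage, 1 point per array and a bar at each group mean, for all 4 groups. Compound 3 points lie below the non-induced points for the 13 genes that fell, and array 3 of compound 3 is the lowest of its group for 11 of them, while the groups overlap for Pts and Qdpr and compound 3 lies higher for Gata3.

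Cargo of the dense-core granule was lower for the granins and for some peptides. Of 20 measured genes for granins, prohormone processing and neuropeptides 7 fell and 0 rose (median -0.07). The median was -0.117 without non-induced array 1, -0.037 without its array 3 and -0.038 without compound 3 array 1. Chga and Chgb, the chromogranins that pack the granule core, both fell. Chga read 12.56, 12.56 and 12.57 against 11.99, 11.79 and 11.54 (-0.79 ± 0.10, adjusted p = 0.000368). Chgb read 12.60, 12.68 and 12.63 against 12.08, 12.07 and 11.88 (-0.63 ± 0.06, adjusted p = 6.07e-05). Their non-induced values hardly varied, and no compound 3 array reached them. Vgf, a granin-like precursor that nerve growth factor induces in PC12 cells, fell by 1.22 ± 0.12 (adjusted p = 8.65e-05) and Scg2, secretogranin II, by 0.85 ± 0.11 (adjusted p = 0.000452). Cpe, which trims prohormones, and Npy, neuropeptide Y, did not pass, at -0.05 and 0.13. On the release side, 16 of 32 genes of regulated exocytosis fell and 4 rose (median -0.18). Sytl4, also called granuphilin, which docks granules, went from 7.45, 7.53 and 7.72 to 6.03, 6.10 and 5.83 (-1.58 ± 0.09, adjusted p = 6.53e-06). Its partner Rab27a fell by 0.51 ± 0.04 and the Rab3 and Rab27 effector Rph3a by 0.88 ± 0.10. Doc2b, a calcium sensor of release, fell by 1.48 ± 0.14, and by 1.30 without compound 3 array 3. Snap25, a core fusion protein, fell by 0.54 ± 0.13 and the calcium sensor Syt1 by 0.39 ± 0.06. Syn1, a protein of small synaptic vesicles, rose by 0.38 ± 0.08 (adjusted p = 0.00541). Rab3a, a vesicle GTPase, rose by 0.40 ± 0.10. Without compound 3 array 3 the list of regulated exocytosis had 14 that fell and 2 that rose, without non-induced array 2 it had 16 and 1, and 2 rose without non-induced array 3 or compound 3 array 1.

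Some receptors through which chromaffin cells are driven were lower too. Of 18 measured nicotinic and purinergic receptor genes 7 fell and 0 rose (median -0.10). That is 38.9% called, beside 21.6% of features with 1 gene symbol. Of the 6 nicotinic subunits among them, a part set apart after values were seen, 4 fell and 0 rose, with a median of -0.80 log2 units. Chrna3, the main ganglionic alpha subunit, went from 11.13, 11.01 and 11.10 to 10.08, 10.05 and 9.44 (-1.22 ± 0.15, adjusted p = 0.000326). Chrnb4, its usual beta partner, went from 8.23, 8.17 and 8.18 to 7.09, 6.88 and 6.58 (-1.34 ± 0.11, adjusted p = 2.61e-05). Chrna5, encoded in the same gene cluster, fell by 0.79 ± 0.11 and Chrna7 by 0.81 ± 0.09. Chrnb2 did not pass (0.14, adjusted p = 0.136). Of 12 purinergic receptors 3 fell and 0 rose: P2ry12 above, the adenosine receptor Adora2a (-1.13 ± 0.20) and, by a small step, P2rx3 (-0.17 ± 0.04). The median of the 12 was -0.02, and their share called was near the 21.6% of features with 1 gene symbol. Of 12 neurotrophin and GDNF receptor genes 2 fell and 2 rose (median -0.02, and 0.025 without compound 3 array 1). Ret, the signalling receptor for GDNF, fell from 9.80, 9.11 and 9.48 to 8.16, 8.22 and 7.84 (-1.39 ± 0.18, adjusted p = 0.000325). Ngfr, the p75 neurotrophin receptor, fell by 1.17 ± 0.12 (adjusted p = 0.000121). The risen genes were Sort1, a sorting receptor that partners p75, at 0.17 ± 0.05 (adjusted p = 0.0401), and Gfra3, a co-receptor of Ret, at 0.24 ± 0.07 (adjusted p = 0.0496). Both calls were lost in most alternatives, that of Gfra3 also with the replicate block.

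Ion channels changed in both directions. Of 41 measured potassium channel genes 9 fell and 5 rose, with a median of 0.00. Kcnn3, a calcium-activated channel, fell by 1.39 ± 0.16, Kcnk3, an acid-sensitive leak channel, by 0.69 ± 0.05, and Kcnma1, the large-conductance BK channel, by 0.57 ± 0.06. Kcnd3, an A-type channel, rose by 0.53 ± 0.08 and Kcnip3, which binds such channels, by 0.68 ± 0.12. Of 19 sodium and calcium channel genes 5 fell and 2 rose (median -0.08, and -0.042 without non-induced array 1). Scn3b, a sodium channel beta subunit, read 10.70, 10.65 and 10.66 against 9.74, 9.63 and 9.61 (-1.01 ± 0.07, adjusted p = 1e-05). The alpha subunit gene Scn2a rose by 0.51 ± 0.08 from 6.03, 5.96 and 5.89. Cacna1c, the L-type calcium channel pore, fell by 0.46 ± 0.07. Leaving out any of 4 arrays (non-induced 2 or 3, compound 3 array 1 or 3) left 3 risen potassium channel genes, and leaving out any 1 of the 6 left 1 risen sodium or calcium channel gene.

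Axon guidance genes leaned lower, and matrix genes as a group did not lean either way. Of 57 guidance genes 20 fell and 7 rose (median -0.08). Plxna4a, a semaphorin co-receptor, fell by 1.16 ± 0.07 and Plxnd1, a semaphorin receptor, by 0.88 ± 0.08. Slit3 fell by 1.08 ± 0.07 while its relative Slit2 rose, as given above. Dpysl3, a growth-cone protein downstream of semaphorins, fell by 0.86 ± 0.06, from 10.24, 10.36 and 10.42 to 9.42, 9.49 and 9.54. Without compound 3 array 3, or without non-induced array 2, 4 guidance genes rose. Of 62 matrix and integrin genes 4 fell and 5 rose. That is 14.5% called, beside 15.2% of all features and 21.6% of those with 1 gene symbol. Sparc, Olfml3, Ddr2 and Itga1 had the larger differences together with Spock1, a matrix proteoglycan, at -1.09. Without compound 3 array 3, 3 matrix genes rose and 5 fell, and without non-induced array 3, 4 rose and 2 fell. Mmp14, a membrane-bound matrix metalloproteinase, fell by 0.38 ± 0.05.

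**Figure D3:**
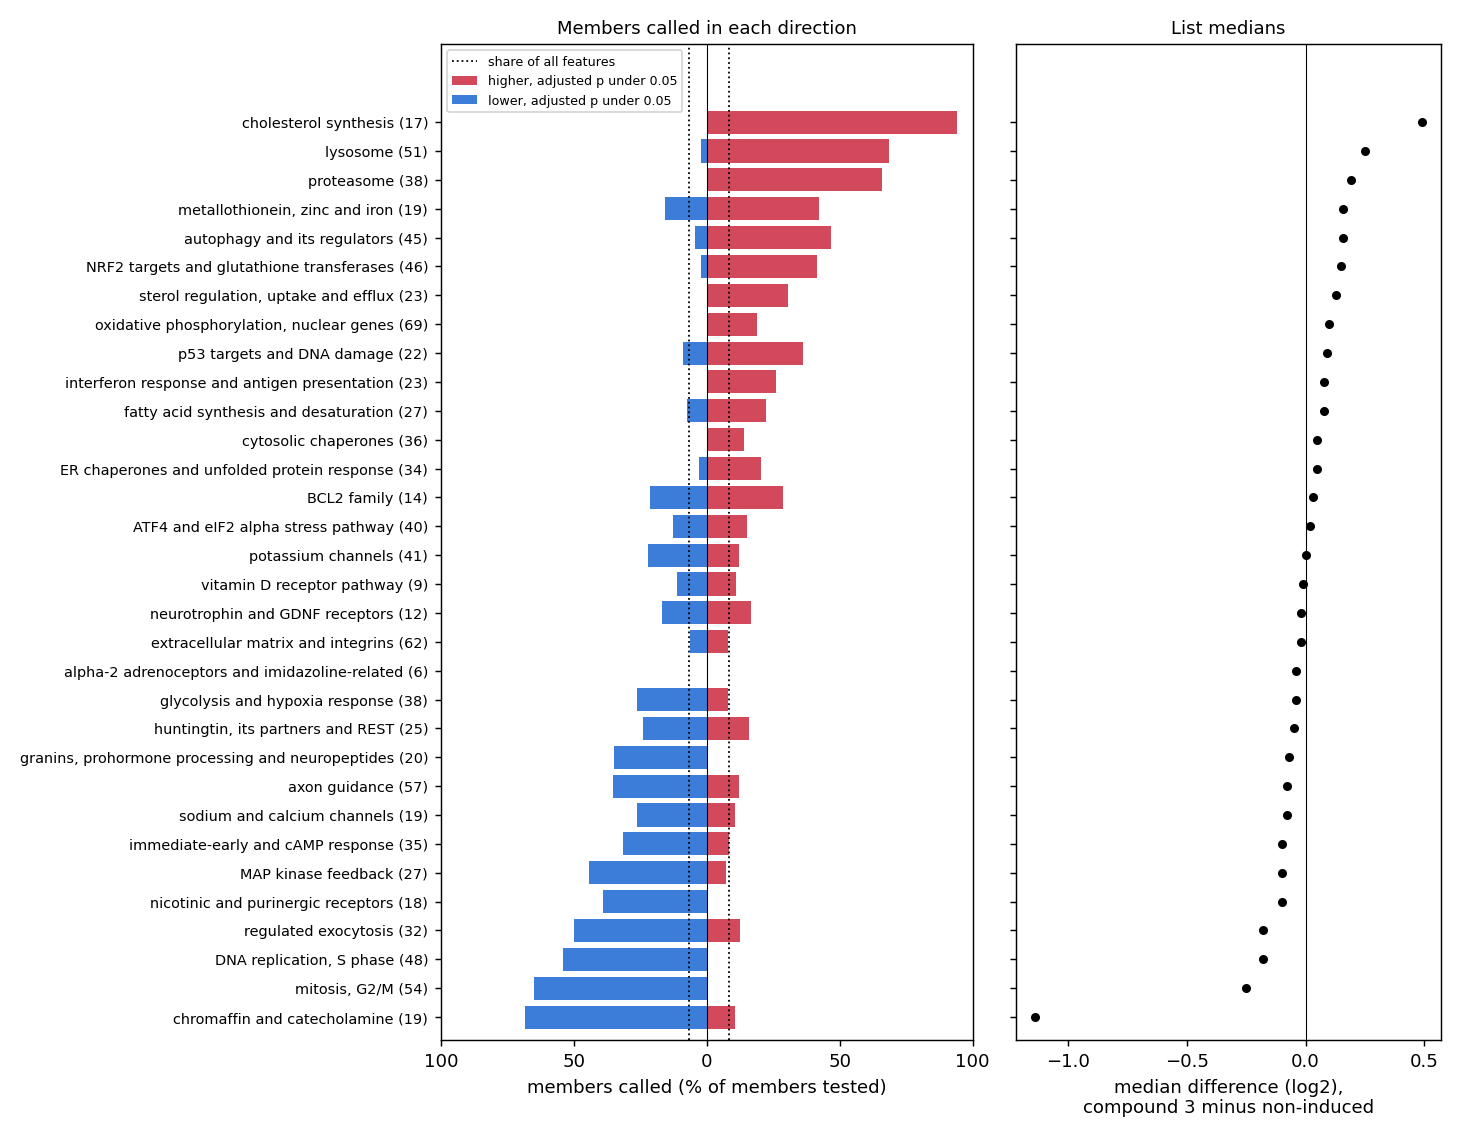
Left, percentage of the measured members of each gene list (number in brackets) that were higher (red, to the right) or lower (blue, to the left) in compound 3 than in non-induced cells at an adjusted p under 0.05, with dotted lines at the shares of all features, 8.34% and 6.82%. Features with 1 gene symbol, as all list members are, were called more often than all features, 21.6% against 15.2% in either direction. Right, median log2 difference of the list. Cholesterol synthesis lies at the top with a median of 0.49 and the chromaffin list at the bottom with -1.14.

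Messages induced by cell activity and cAMP were lower in part. Of 35 immediate-early and cAMP-response genes 11 fell and 3 rose (median -0.10). Fos, a subunit of the AP-1 factor, read 6.02, 6.11 and 6.33 against 5.25, 5.23 and 5.0 (-0.99 ± 0.09, adjusted p = 5.7e-05). Arc, a regulator of synaptic receptors, went from 8.83, 8.94 and 8.91 to 8.14, 8.0 and 8.08 (-0.82 ± 0.05, adjusted p = 6.53e-06). Neither gene overlapped between the groups. Nr4a1, an orphan nuclear receptor, fell by 0.98 ± 0.10, the cAMP-induced kinase Sik1 by 1.15 ± 0.15, and Klf10, a zinc-finger factor, by 0.61 ± 0.06. Ier2, an immediate-early factor, fell by 0.31 ± 0.07 (adjusted p = 0.00898), and Crem, which encodes cAMP-responsive activators and repressors, by 0.27 ± 0.07 (adjusted p = 0.0294). Egr1 and Junb, which belong to the same early response, did not pass, at -0.07 and -0.04. Homer1, a synaptic scaffold, rose by 0.28 ± 0.05 and Rgs2, a brake on G-protein signals, by 0.23 ± 0.05. Of 27 feedback inhibitors and targets of MAP kinase signalling 12 fell and 2 rose (median -0.10). That median was -0.057 without compound 3 array 1 and -0.037 without its array 3. Etv5 and Etv4, ETS factors under ERK control, fell by 1.10 ± 0.10 and 0.69 ± 0.07. Spred2, an inhibitor of Ras signalling, fell by 0.78 ± 0.06, from 8.97, 8.89 and 9.01 to 8.25, 8.23 and 8.05. Of 6 Sprouty and Spred genes 4 fell. Of 10 dual-specificity phosphatases 4 fell and 2 rose, with Dusp1 at -1.03 ± 0.14, Dusp6 at -0.32 ± 0.06 and Dusp2 at 0.33 ± 0.05. Without non-induced array 2 or 3, or compound 3 array 3, 1 gene of MAP kinase feedback rose.

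The cAMP response element, TGACGTCA, was looked for on both strands of RefSeq promoters (assembly GRCr8, 250 bases before to 50 after the start), together with its shorter core TGACG, which the full element contains. Of the 11 immediate-early and cAMP genes that fell 6 had a promoter in the table. Of these 2 (33.3%), Ier2 and Crem, held the full element, beside 2.0% of all 27457 genes with a promoter. The shorter core was in 5 of the 6 (83.3%, beside 23.0%). Of the 13 chromaffin genes that fell 10 had a promoter, of which 1 (10.0%), Th, held the full element, and 5 (50%) held the shorter core. The 3 promoters that hold the element are shown because they are the members of both fallen groups in which it was found, with the element in capitals. They lie at chr19:40399123-40399422 on the plus strand for Ier2, chr17:58984547-58984846 on the plus strand for Crem, and chr1:207508169-207508468 on the minus strand for Th. The element begins at -66, -56 and -69 relative to the annotated start. A match of letters describes the sequence and is no measurement of binding. Members of these lists that were not called were not counted, so the shares do not bear on the fall.
Ier2: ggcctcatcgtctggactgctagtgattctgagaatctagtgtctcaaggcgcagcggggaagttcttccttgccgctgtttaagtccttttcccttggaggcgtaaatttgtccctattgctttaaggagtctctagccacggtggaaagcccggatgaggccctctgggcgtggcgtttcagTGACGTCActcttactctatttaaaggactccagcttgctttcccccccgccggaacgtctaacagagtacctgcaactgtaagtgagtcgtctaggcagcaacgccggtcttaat
Crem: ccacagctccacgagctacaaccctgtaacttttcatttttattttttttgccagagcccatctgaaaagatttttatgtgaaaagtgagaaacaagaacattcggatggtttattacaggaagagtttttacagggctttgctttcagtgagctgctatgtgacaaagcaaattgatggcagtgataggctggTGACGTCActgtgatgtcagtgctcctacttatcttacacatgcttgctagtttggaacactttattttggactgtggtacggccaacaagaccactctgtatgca
Th: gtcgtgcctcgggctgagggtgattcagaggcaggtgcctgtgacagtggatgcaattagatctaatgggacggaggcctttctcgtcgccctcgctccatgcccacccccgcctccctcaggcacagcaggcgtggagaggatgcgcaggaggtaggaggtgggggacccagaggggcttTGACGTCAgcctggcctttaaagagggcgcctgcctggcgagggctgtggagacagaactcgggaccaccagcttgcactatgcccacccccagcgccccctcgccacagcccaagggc

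Cholesterol synthesis was the list with the largest share of risen members. Of 17 measured enzymes 16 rose and 0 fell, with a median of 0.49 log2 units, and 16 of 17 did not overlap between the groups, beside 30.3% of all features. Before squalene, 6 of 7 rose: Idi1, which isomerises the isoprene unit, went from 7.62, 7.63 and 7.49 to 8.56, 8.50 and 8.43 (0.92 ± 0.08, adjusted p = 5.37e-05). Fdft1, which makes squalene, rose by 0.57 ± 0.11, Fdps, which makes its precursor, by 0.45 ± 0.07, and Mvk, the mevalonate kinase, by 0.38 ± 0.05. Pmvk, the next kinase, was the member that did not pass (0.11, adjusted p = 0.393). After squalene, 10 of 10 rose. Lss, which closes the sterol rings, went from 8.41, 8.20 and 8.02 to 9.18, 9.07 and 9.11 (0.91 ± 0.11, adjusted p = 0.000195). Msmo1, a methylsterol oxidase, went from 9.02, 8.77 and 8.59 to 9.99, 9.85 and 9.95 (1.14 ± 0.15, adjusted p = 0.000446). In both genes the compound 3 arrays lay within a narrower band than the non-induced arrays. Dhcr7, the last step, rose by 0.72 ± 0.12, Cyp51, which removes a methyl group of lanosterol, by 0.66 ± 0.09, Tm7sf2, a sterol reductase, by 0.59 ± 0.07, and Sqle, the squalene epoxidase, by 0.53 ± 0.08. Compound 3 array 3 was the highest of its group for 1 of the 16, and without it 16 rose with a median of 0.532.

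**Figure D4:**
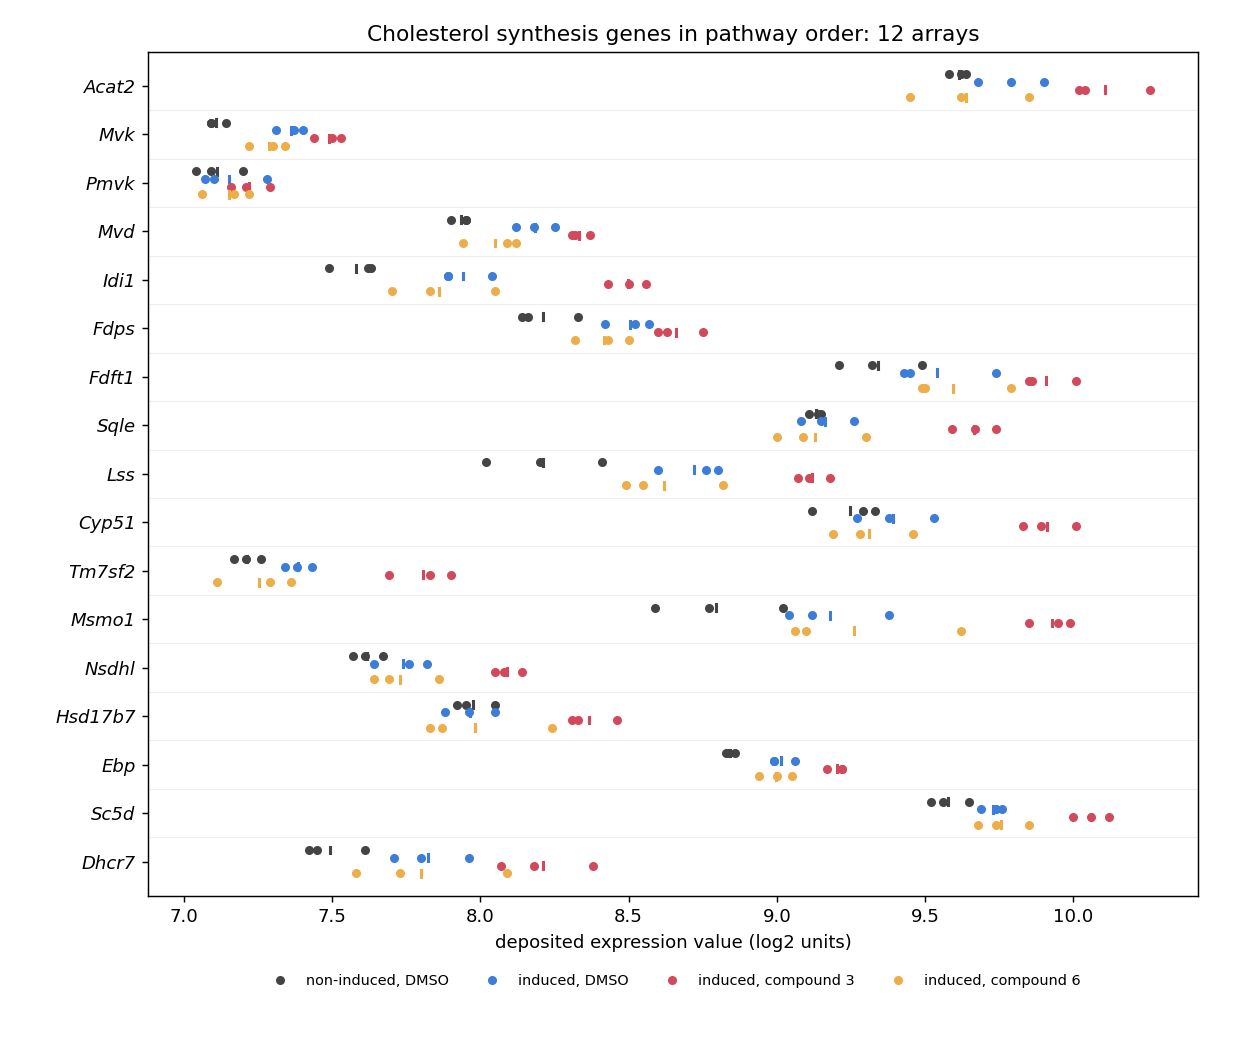
Deposited log2 expression values of the 17 measured enzymes of cholesterol synthesis in pathway order from top to bottom, 1 point per array and a bar at each group mean, for all 4 groups. The compound 3 points lie to the right of the non-induced points for the 16 genes that rose, with Msmo1 furthest at 1.14 log2 units, and the points of Pmvk overlap.

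Regulators of that pathway were measured too. Srebf2, the transcription factor that drives sterol synthesis, rose from 9.14, 9.04 and 8.97 to 9.54, 9.43 and 9.47 (0.43 ± 0.07, adjusted p = 0.00212). Insig1, which retains that factor in the endoplasmic reticulum, lay at 8.26, 7.98 and 7.86 against 8.71, 8.41 and 8.49 and did not pass (0.50 ± 0.17, adjusted p = 0.0684). Over all 23 genes of sterol regulation, uptake and efflux 7 rose and 0 fell (median 0.13). Npc2 and Lipa, which release cholesterol in the lysosome, rose by 0.49 ± 0.06 and 0.45 ± 0.06, and Soat1, which esterifies it, by 0.34 ± 0.05. Srebf1 and the exporter gene Abca1 did not pass, at -0.11 and -0.13. Among 27 genes of fatty acid synthesis and desaturation 6 rose and 2 fell (median 0.08), with the desaturase Fads1 at 0.57 ± 0.14 and Lpin1, a phosphatidic acid phosphatase, at 0.41 ± 0.08. Fasn, the fatty acid synthase, did not pass (0.02, adjusted p = 0.954), and 3 of the fatty acid genes rose and 1 fell when non-induced array 2 or 3 or compound 3 array 1 was left out. The call of Fads1 was lost in each of these 3 cases (adjusted p up to 0.078).

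Of the 16 cholesterol genes that rose 14 had a RefSeq promoter. The core of the sterol regulatory element, CACCCCAC on either strand, was in 1 of them (7.1%, beside 2.84% of all genes with a promoter). It was that of Ebp, a sterol isomerase that rose by 0.36 ± 0.04 (adjusted p = 0.000277). The CCAAT box, which binds the factor NF-Y, was in 11 of the 14 (78.6%, beside 39.6%). These shares describe the list and do not bear on the rise. The Ebp promoter (chrX:16971212-16971511, plus strand) is shown because it was the match found, with the core in capitals, beginning at -199.
Ebp: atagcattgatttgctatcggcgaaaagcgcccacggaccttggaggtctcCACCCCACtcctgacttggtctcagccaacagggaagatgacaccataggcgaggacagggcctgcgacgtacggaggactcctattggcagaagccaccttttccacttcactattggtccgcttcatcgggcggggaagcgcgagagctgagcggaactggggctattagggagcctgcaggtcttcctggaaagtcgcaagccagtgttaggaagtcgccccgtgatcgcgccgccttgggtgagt

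Lysosomal genes were higher as a broad group. Of 51 measured members 35 rose and 1 fell, with a median of 0.25 log2 units. Ctsl and Ctsd, proteases of the lysosomal lumen, rose. Ctsl read 8.56, 8.61 and 8.49 against 9.15, 9.22 and 9.30 (0.67 ± 0.06, adjusted p = 3.72e-05). Ctsd read 10.52, 10.63 and 10.60 against 11.19, 11.16 and 11.34 (0.65 ± 0.07, adjusted p = 9e-05). Cln3, a membrane protein mutated in juvenile Batten disease, rose by 0.56 ± 0.06, and Smpd1 and Asah1, which break down sphingomyelin and ceramide, by 0.61 ± 0.08 and 0.56 ± 0.06. Of 15 genes for the proton pump 12 rose and 1 fell. The exception was Atp6v1b2, a subunit that also serves secretory granules, which went from 11.85, 11.89 and 11.96 to 11.20, 11.23 and 11.15 (-0.71 ± 0.06, adjusted p = 2.22e-05). The other 36 lysosomal genes had 23 that rose and 0 that fell, and Gpnmb is the largest of them. Without compound 3 array 3, 27 lysosome genes rose and 1 fell.

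Autophagy genes rose in smaller steps. Of 45 members 21 rose and 2 fell (median 0.16). Gabarapl1, an Atg8 protein of the autophagosome membrane, went from 9.34, 9.44 and 9.41 to 10.03, 10.08 and 10.19 (0.70 ± 0.06, adjusted p = 3.53e-05). Map1lc3b, from the LC3 branch of that family, rose by 0.34 (adjusted p = 0.000367) and the cargo receptors Sqstm1 and Optn by 0.35 (adjusted p = 0.00243) and 0.47 (adjusted p = 0.00012). Flcn, a nutrient-sensing regulator at the lysosome, rose by 0.54 ± 0.06, and Atg2b, a lipid transfer protein, by 0.59 ± 0.07. The 2 that fell were Ulk1, the kinase that starts autophagy (-0.33 ± 0.08), and Atg7, which activates Atg8 proteins (-0.20 ± 0.04). The call of Ulk1 was lost without non-induced array 3 or compound 3 array 3, and that of Atg7 with the replicate block on the 6 arrays alone (adjusted p = 0.0595). Tfeb, a transcription factor of lysosomal genes, did not pass (-0.06, adjusted p = 0.426).

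Proteasome subunits were higher together by small amounts. Of 38 genes 25 rose and 0 fell, with a median of 0.19 and a largest difference of 0.39. The barrel-shaped 20S core had 10 of 14 risen and the 19S cap 15 of 20, while the 4 activator genes had a median of 0.02 and gave no call. Psmd11, a cap subunit, read 9.51, 9.58 and 9.57 against 9.95, 9.92 and 9.97 (0.39 ± 0.05, adjusted p = 0.000298). Psma2, a core subunit, read 9.73, 9.77 and 9.74 against 10.03, 10.09 and 10.11 (0.33 ± 0.05, adjusted p = 0.00113). Both pairs of groups were apart although the steps were under 1.5-fold. Without non-induced array 1, or without compound 3 array 3, 13 proteasome genes rose, and without compound 3 array 2, 15.

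Detoxification genes rose in part, and some well-known NRF2 targets did not pass. Of 46 NRF2 targets and glutathione transferases 19 rose and 1 fell (median 0.15), and 7 of 16 transferases rose. Gstm2 was first, and Gstp1 went from 8.24, 8.25 and 8.23 to 8.86, 8.74 and 8.95 (0.61 ± 0.06, adjusted p = 5.22e-05). Osgin1, an oxidative-stress-induced growth inhibitor, rose by 0.54 ± 0.06, and Gclc, which makes the glutathione precursor, by 0.34 ± 0.06. Nqo1, Gclm and Srxn1, well-known NRF2 targets, did not pass, at 0.08, -0.08 and 0.15. Hmox1, heme oxygenase 1, was the member that fell, from 9.17, 9.25 and 9.16 to 8.52, 8.66 and 8.43 (-0.66 ± 0.07, adjusted p = 0.000105). Without non-induced array 3 or compound 3 array 3, 11 members rose. Among 19 genes of metallothioneins, zinc and iron 8 rose and 3 fell (median 0.16). Tfrc, the transferrin receptor, rose by 0.45 ± 0.05 and Ftl1, the ferritin light chain, by 0.47 ± 0.08, and the metallothioneins Mt1 and Mt2A rose by 0.73 ± 0.20 and 0.75 ± 0.17. For both metallothioneins the lowest compound 3 array, array 3, lay close to the highest non-induced array, array 1.

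Cell division genes were lower by small amounts. Of 54 mitosis genes 35 fell and 0 rose (median -0.25), and 52 lay below their non-induced mean. Nuf2, a kinetochore protein, read 10.16, 10.20 and 10.31 against 9.56, 9.55 and 9.30 (-0.75 ± 0.09, adjusted p = 0.000285). Kif4a, a chromosome-bound motor, read 9.17, 9.10 and 9.18 against 8.76, 8.81 and 8.66 (-0.41 ± 0.06, adjusted p = 0.000718). Array 3 was the lowest compound 3 array in both. Top2a, the topoisomerase of mitotic chromosomes, fell by 0.47 ± 0.07 and Cdc25b, a phosphatase that opens mitosis, by 0.37 ± 0.06. Of 48 genes of DNA replication 26 fell and 0 rose (median -0.18), with Uhrf1, which copies DNA methylation, at -0.53 ± 0.07, the S-phase factor E2f2 at -0.40 ± 0.07 and 4 of 7 Mcm helicase genes called. These counts moved with single arrays. In mitosis, G2/M, 17 genes fell without compound 3 array 3, 16 without non-induced array 3 and 23 without non-induced array 2. In DNA replication, S phase, the counts were 12, 12 and 15.

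Promoters of mitotic genes often hold the cell cycle homology region, TTTGAA, and CCAAT boxes. Of the 35 mitosis genes that fell 28 had a RefSeq promoter. TTTGAA on either strand was in 21 of them (75%), beside 19.4% of all 27457 genes with a promoter, and CCAAT in 20 (71.4%), beside 39.6%. Members that were not called were not counted, so these shares describe the list and do not bear on the fall. The promoters of the pair with the smallest p that hold TTTGAA are shown with it in capitals. Nuf2 (chr13:84255549-84255848, minus strand) holds it from base 30 of the transcript and Kif4a (chrX:69761633-69761932, plus strand) from -3.
Nuf2: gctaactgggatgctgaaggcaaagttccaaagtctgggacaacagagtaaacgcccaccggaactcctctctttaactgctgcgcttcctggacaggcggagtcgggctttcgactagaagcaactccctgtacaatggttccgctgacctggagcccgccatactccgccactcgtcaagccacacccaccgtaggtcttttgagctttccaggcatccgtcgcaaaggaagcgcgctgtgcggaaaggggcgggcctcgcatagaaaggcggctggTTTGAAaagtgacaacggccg
Kif4a: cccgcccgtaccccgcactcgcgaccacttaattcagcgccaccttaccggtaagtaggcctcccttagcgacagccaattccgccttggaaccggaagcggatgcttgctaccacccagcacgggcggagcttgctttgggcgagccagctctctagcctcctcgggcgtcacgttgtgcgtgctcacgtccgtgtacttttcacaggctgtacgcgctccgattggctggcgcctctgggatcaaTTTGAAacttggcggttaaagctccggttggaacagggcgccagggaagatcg

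Genes of the eIF2 alpha stress pathway, on which guanabenz has been reported to act, were called in both directions. Ppp1r15a, the target named above, read 6.99, 6.90 and 7.02 against 7.12, 7.12 and 7.15 (0.16 ± 0.05, adjusted p = 0.037). It no longer passed in 13 of the alternatives tried besides a minimum fold, and one of these was the replicate block. Ppp1r15b, its constitutive relative, lay at 0.00 (adjusted p = 0.98), Atf4, the factor translated when eIF2 alpha is phosphorylated, at -0.01 (adjusted p = 0.918), Ddit3, also called CHOP, at 0.09 (adjusted p = 0.647), and Hspa5, the main chaperone of the endoplasmic reticulum, at 0.03 (adjusted p = 0.783). Of 40 genes of the ATF4 pathway 6 rose and 5 fell (median 0.02), 27.5% in all, beside 21.6% of features with 1 gene symbol. Cth rose, as given above, while Stc2 and Ddit4, a secreted hormone and an inhibitor of mTOR signalling, fell by 0.79 ± 0.08 and 0.65 ± 0.08. Leaving out any 1 of the 6 arrays left 1 to 3 genes of that list risen, fewest without compound 3 array 3, and 3 or 4 fallen. Of 34 genes of the unfolded protein response 7 rose and 1 fell (median 0.05), 23.5% in all, near the 21.6% of features with 1 gene symbol. The sensor Atf6 stood at 0.25 ± 0.04 and its relative Atf6b at 0.44 ± 0.05. Leaving out non-induced array 2 or 3, or compound 3 array 2, left 4 genes of that list risen. Of 36 cytosolic chaperones 5 rose and 0 fell (median 0.05). That is 13.9% called, below the 15.2% of all features and the 21.6% of those with 1 gene symbol. The co-chaperone Dnajb4 rose by 0.53 ± 0.07, and Hspa1a, the inducible HSP70, did not pass (0.20, adjusted p = 0.0776). Without non-induced array 1, or compound 3 array 2 or 3, 3 of the chaperones rose. Among 6 genes for alpha-2 adrenoceptors and imidazoline-related proteins 0 passed by limma's test and 0 had an unadjusted p under 0.05, with differences from -0.17 to 0.03. Adra2a, the alpha-2A adrenoceptor, lay below the mean floor and was not tested.

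Other stress and survival genes changed in part. Of 22 p53 targets 8 rose and 2 fell (median 0.09). Gadd45a, a growth-arrest gene, went from 6.41, 6.56 and 6.66 to 7.31, 7.27 and 7.45 (0.80 ± 0.10, adjusted p = 0.000301). Eda2r, a death-domain receptor, rose by 0.79 ± 0.13, and Cdkn1a, which encodes p21, did not pass (-0.12, adjusted p = 0.652). Of 14 genes of the BCL2 family 4 rose and 3 fell. The killers Bax, Bak1 and Bid rose by 0.34 ± 0.07, 0.30 ± 0.05 and 0.38 ± 0.07. The other riser was a protector, Bcl2l2, at 0.18 ± 0.05 (adjusted p = 0.0422). It no longer passed under most alternatives. Another protector, Bcl2l1, fell by 0.46 ± 0.05, and so did the killer Bcl2l11, by 0.32 ± 0.06. Of 38 genes of glycolysis and hypoxia 10 fell and 3 rose (median -0.04). Epas1, which encodes HIF-2 alpha, read 11.97, 12.01 and 12.14 against 10.95, 11.03 and 10.77 (-1.12 ± 0.09, adjusted p = 2.34e-05). The carbonic anhydrase Car12 fell by 1.26 ± 0.12 and the angiogenic factor Vegfa by 0.84 ± 0.13. Leaving out non-induced array 3 or compound 3 array 3 left 6 of that list fallen. Of 69 nuclear genes of oxidative phosphorylation 13 rose and 0 fell (median 0.10), 8 of them from complex I. That is 18.8% called, beside 15.2% of all features and 21.6% of those with 1 gene symbol. The risen count was 5 without non-induced array 3, 8 without its array 2, 7 without compound 3 array 1 and 6 without compound 3 array 2. Of 23 interferon and antigen presentation genes 6 rose and 0 fell, with the antiviral Mx2 at 0.58 ± 0.05 and the peptide transporter Tap1 at 0.45 ± 0.06. That is 26.1% called, beside the same 21.6%.

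The rat Htt gene itself, which is not the induced transgene, read 7.77, 7.66 and 7.85 against 7.79, 7.87 and 8.22 and did not pass (0.20 ± 0.10, adjusted p = 0.247). Its groups overlapped. No probe for GFP was used here, so the arrays give no check of induction. Of 25 genes of huntingtin, its partners and the repressor REST 6 fell and 4 rose (median -0.05, and -0.02 without non-induced array 3 or -0.01 without compound 3 array 1). Rest, which silences neuronal genes, rose from 5.19, 5.10 and 4.92 to 5.49, 5.62 and 5.73 (0.54 ± 0.08, adjusted p = 0.000782). Rasd2, a small GTPase that binds mutant huntingtin, fell by 0.39 ± 0.06, and Hap1, a huntingtin-associated transport adaptor, by 0.23 ± 0.05.

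The direct test of compound 3 against DMSO in induced cells asks where the difference from non-induced cells departed from that of induction alone. It called 8 features (0.0232%), 2 higher and 6 lower, with 2509 at an unadjusted p under 0.05, and 2 to 6 when any 1 array was left out. The induced DMSO arrays varied most, with a median standard deviation of 0.095, beside 0.072 for non-induced, 0.070 for compound 3 and 0.067 for compound 6. Without induced DMSO array 1 the unadjusted count was 5840, and without its array 3 it was 1581. Few calls in this test therefore do not show that compound 3 and DMSO cells were alike. Vdr, the vitamin D receptor, stood out. It read 7.43, 7.37 and 7.48 in non-induced cells, 7.22, 7.37 and 7.45 in induced cells with DMSO, 6.31, 6.31 and 6.30 with compound 3, and 6.77, 6.80 and 6.70 with compound 6. It was lower with compound 3 than with DMSO by 1.04 ± 0.06 (adjusted p = 5.76e-05), whereas induced DMSO and non-induced cells differed by -0.08. Ptprr, a phosphatase that switches off ERK, read 6.41, 6.25 and 6.19 with compound 3, 6.89, 6.78 and 6.82 with DMSO after induction, and 7.46, 7.42 and 7.47 without induction (-0.55 ± 0.06 against DMSO, adjusted p = 0.0159). Kcnh3, a brain potassium channel, and Itga1 lay below the induced DMSO arrays by 0.44 ± 0.06 (adjusted p = 0.0484) and 0.61 ± 0.08 (adjusted p = 0.0492). The other 4 features had no gene symbol. Among them TC1500001407.rn.1 read 6.31, 6.27 and 6.11 in non-induced, 6.97, 6.91 and 6.83 in induced DMSO, and 8.01, 7.86 and 7.98 in compound 3 cells (1.05 ± 0.08 against DMSO, adjusted p = 0.000742). It was also the unnamed feature with the largest rise from non-induced cells, 1.72.

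The gene groups described above can be set beside this test. For cholesterol synthesis the median difference from non-induced cells was 0.49 with compound 3, 0.18 with DMSO after induction and 0.15 with compound 6, and all 17 enzymes lay higher with compound 3 than with DMSO (median 0.37), yet 0 of 17 passed that test by limma, with 16 at an unadjusted p under 0.05. For the chromaffin list the same medians were -1.14, -0.64 and -0.40, with 0 of 19 called between compound 3 and DMSO and 8 at an unadjusted p under 0.05. For the lysosome they were 0.25, 0.14 and 0.15, and for mitosis -0.25, -0.22 and -0.17, again with 0 called, and 21 and 2 genes at an unadjusted p under 0.05. Proteasome medians were 0.19, 0.16 and 0.08, those of autophagy 0.16, 0.12 and 0.09, and those of NRF2 targets and glutathione transferases 0.15, 0.14 and 0.11. In these lists too 0 were called between compound 3 and DMSO, with 2, 11 and 3 at an unadjusted p under 0.05. These comparisons share the non-induced arrays. Gpnmb differed from non-induced cells by 2.03 with compound 3, 0.76 with DMSO and 1.00 with compound 6, and by 1.27 ± 0.19 between compound 3 and DMSO (adjusted p = 0.0776). Rest differed by 0.54, 0.42 and 0.41.

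Compound 3 and compound 6, at the same dose and time, were compared as 1 pair. The test called 15 features (0.0436%), 8 higher and 7 lower with compound 6, with 2802 at an unadjusted p under 0.05, and 1 to 9 when any 1 array was left out. Of the 8 named genes 3 were cholesterol enzymes, each lower with compound 6. Idi1 read 8.05, 7.70 and 7.83 with compound 6 and 8.56, 8.50 and 8.43 with compound 3 (-0.64 ± 0.08, adjusted p = 0.0426). Tm7sf2 was lower by 0.55 ± 0.07 (adjusted p = 0.0426) and Sqle by 0.54 ± 0.08 (adjusted p = 0.05 after rounding). Itga1 read 7.58, 7.48 and 7.74 with compound 6 and was higher there by 0.76 ± 0.08 (adjusted p = 0.023). Tle3, a corepressor, was higher by 0.42 ± 0.05 and Vdr by 0.45 ± 0.06 (adjusted p = 0.0426 for both). Tiam2 and Arhgap26, which switch small GTPases on and off, were higher by 0.39 ± 0.06 and 0.37 ± 0.05 (adjusted p = 0.05 after rounding for both). Th and Gch1 were not called. For Th, compound 6 minus compound 3 was 0.75 with a 95% interval from 0.19 to 1.30. For Gch1 it was 0.38 with an interval from 0.21 to 0.56 (limma adjusted p = 0.134). Such intervals are those of single features and are not adjusted for the number of features tested. A p that misses the threshold does not show that the compounds act alike.

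**Figure D5:**
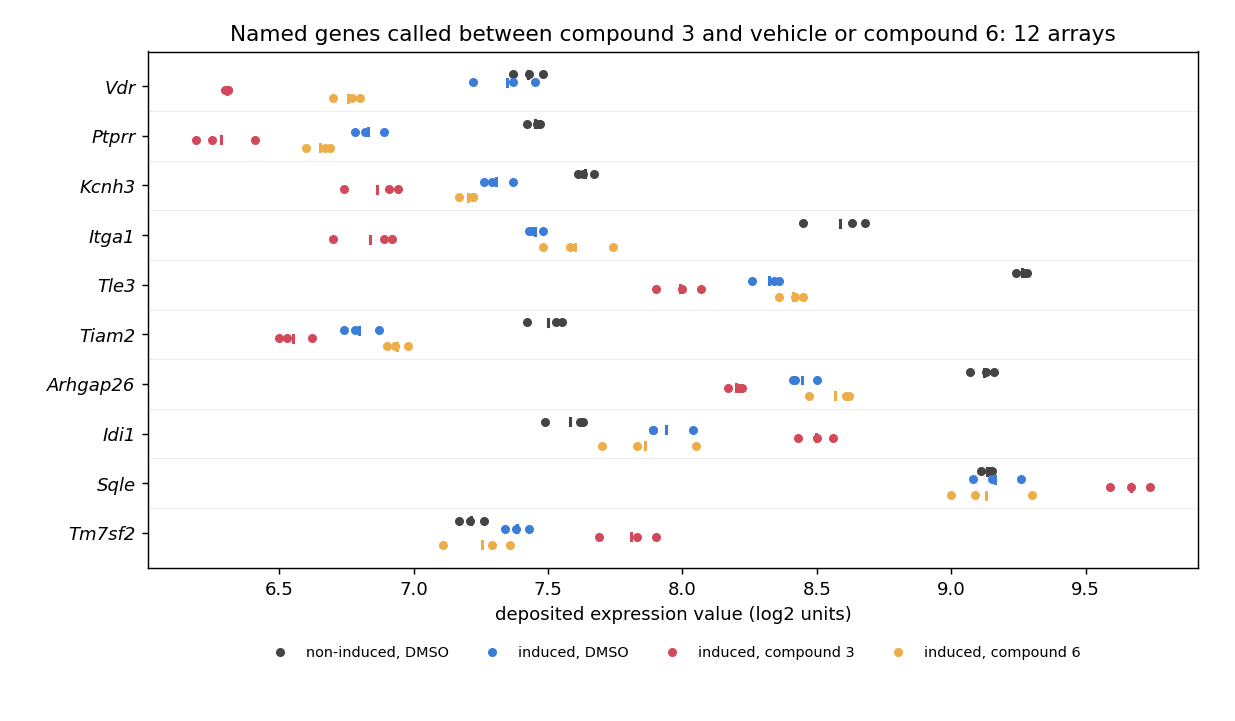
Deposited log2 expression values of the 10 named genes called between compound 3 and DMSO in induced cells or between both compounds, 1 point per array and a bar at each group mean, for all 4 groups. For Vdr the induced DMSO arrays (7.22 to 7.45) lie with the non-induced ones and the compound 3 arrays (6.30 to 6.31) lie lowest, and for Sqle the compound 3 arrays lie alone at 9.59 to 9.74.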

How the data were processed

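Total RNA of 12 PC12 samples, 3 in each of 4 groups, was hybridised to Affymetrix Rat Transcriptome Array 1.0 arrays, 1 array per sample, after labelling of 250 ng. The deposited values are log2 expression levels, made with RMA in Affymetrix Expression Console per the submitters' processing notes. RMA pulls the arrays' distributions together, so a shift shared by most genes would not be seen. Of 70580 features, 1738 controls and those below the mean floor were left out. Gene symbols came from the platform annotation and were checked against RefSeq (GRCr8), which updated 1; of the 34422 features kept, 16054 had 1 symbol, 295 several and 18073 none. A model with a mean for each of the 4 groups was fitted across the 12 arrays in limma 3.58.1 (R 4.3.3), with Benjamini-Hochberg adjustment over the features kept, and was tested on simulated data. No pair of arrays was identical. Same-numbered non-induced and compound 3 arrays deviated together (correlations of 0.406, 0.263 and 0.109), so a replicate block was tried too. Pairs of unlike number ran from -0.419 to 0.268, the highest for non-induced array 3 with compound 3 array 2. The numbers therefore need not mark a shared batch. Files gave no slide or scan date here. Precision is limited by 3 arrays a group.

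The named genes were the 12 rising and 12 falling most without overlap, up to 4 passing members of each list with the smallest p in its main direction and 2 in the other, up to 8 named genes called in each comparison with compound 3 in induced cells, and a fixed set that included Htt, Vdr, Th, Rest and the Ppp1r15 genes. Members, lists and this rule were chosen with earlier results of these data known, and parts of a list (proton pump, proteasome core, nicotinic subunits and the like) after values were seen. Of 1146 list entries on the array, 1026 were tested. Promoters were read from the RefSeq table. Python 3.11.15 with matplotlib 3.10.9 drew the figures. Alternatives covered the filter, scaling, variance model, array weights, minimum fold, the arrays fitted, the block and each array left out.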

Additional observations from a re-analysis of the deposited data

How the results depend on the processing

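Calls of single genes under each alternative were computed for the genes of the naming rule only, not for further examples. They were computed for compound 3 against non-induced cells alone. In the other comparisons most calls were not kept. With 1 array left out, 2 to 4 of the 8 features called between compound 3 and DMSO passed again. Of the 15 called between both compounds, 1 to 8 did. Of 180 features of the naming rule, some (such as Htt and Atf4) had no call against non-induced cells to keep. For that comparison 151 kept theirs in each alternative that tested them, other than a minimum change of 1.5-fold. The filter at the 75th percentile left some of them out, such as Agtr2. Under the 1.5-fold minimum 82 features passed between compound 3 and non-induced cells (6 higher, 76 lower). Leaving out 1 array gave 3465 to 5477 features for that comparison, lowest without non-induced array 3, and the other settings 3903 (no filter) to 6892 (array weights). Higher calls were 55.0% of all calls as reported, 49.0% with median scaling and 46.5% with cyclic loess. With the replicate block 5565 features passed (4753 from the 6 arrays alone, an alternative chosen after seeing the data). The block ended the calls of Ppp1r15a and of some other small changes, such as Phgdh and Maoa. For compound 3 against DMSO in induced cells, reported as 8, the count was 3 with no filter, 22 with a filter at the 75th percentile, 4 with median scaling, 18 with an intensity trend, 13 with array weights, 26 with the replicate block, 0 with the 1.5-fold minimum (4 at an unadjusted p under 0.05), 2 from the 6 arrays, and 2 to 6 with 1 array left out. For compound 6 against compound 3, reported as 15, it was 2 with no filter, 6 with median scaling, 133 with array weights, 45 with the block, 0 with the 1.5-fold minimum (3 unadjusted), 1 from the 6 arrays, and 1 to 9 with 1 array left out. In these 2 comparisons same-numbered arrays did not all deviate together (correlations of 0.452, -0.13 and 0.013 for DMSO with compound 3 in induced cells, and 0.259, 0.118 and -0.03 for both compounds), so their numbers were not taken as pairs. Signs turned for Ppp1r15b (-0.007 with median scaling, -0.015 with cyclic loess, -0.015 without non-induced array 2, -0.002 without compound 3 array 3) and Atf4 (0.028 with quantile normalisation, 0.01 without non-induced array 3, 0.012 without compound 3 array 2), which lie near 0. Leaving out 1 array moved Ppp1r15b between -0.015 and 0.02 and Atf4 between -0.038 and 0.012. Insig1 passed in 8 settings. Except where an alternative tested fewer arrays or set a minimum fold, the cause was not tested.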

Other observations

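Many features without a gene symbol changed as well, 601 higher and 1096 lower of 18073 tested. The largest falls were TC1200000390.rn.1, from 10.58, 10.16 and 10.73 to 8.02, 8.33 and 7.27 (-2.62 ± 0.25, limma adjusted p = 6.9e-05), and TC1000003286.rn.1, from 11.22, 11.24 and 11.34 to 9.37, 9.49 and 8.78 (-2.05 ± 0.17, adjusted p = 3e-05). In both, compound 3 array 3 was the lowest and the groups did not overlap. After TC1500001407.rn.1, the largest rise was TC0200003462.rn.1, from 4.91, 4.89 and 4.56 to 6.11, 6.09 and 6.53 (1.46 ± 0.17, adjusted p = 0.00021).

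Calls fell unevenly over the range of expression. With the tested features in 4 equal bins of mean level, 174 were higher and 125 lower in compound 3 cells in the lowest bin, in the next 512 and 278, in the next 1353 and 737, and in the highest 831 and 1206.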
